A study of Danio rerio with 4 samples.

Results

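The genes described here code for the contractile apparatus of zebrafish muscle: myosin heavy and light chains, myosin-binding proteins, troponins, tropomyosins, muscle actins, alpha-actinins, myomesins, myozenins and nebulin. They were taken from the deposited table by the start of the gene symbol, with cardiac myl7, myh6 and tnnt2a left out, and 96 of 19924 features met the rule. The titin genes ttn.1 and ttn.2 did not, because their symbol continues with a point, and their values are given beside the members. Of the 96 members, 60 code for proteins of skeletal or other striated muscle and 14 are best known from the heart. The grouping is by known role, not by the tissue the reads of these libraries came from. The other 22 were set apart as coding for cytoplasmic, smooth muscle or unrelated proteins. The last group includes tpmt.1 and tpmt.2, which code for the enzyme thiopurine methyltransferase and share only letters with tropomyosin. The kinase gene tnni3k was likewise chosen by its letters and stands among the 60.

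RNA came from Danio rerio larvae at 3 days post fertilization (dpf), all offspring of 1 pair heterozygous for both genes (cpa1+/- cpa5+/-). The double knockout of cpa1 and cpa5, genes for pancreatic carboxypeptidases, was sampled in 2 libraries, and controls labelled WT, whose titles call them siblings, in 2 others. Heads served for genotyping and the tail part of each fish for RNA, and no strain, drug or number of fish per library is given. In the main test between genotypes, the spread behind each p-value is that between libraries of a group, perhaps only technical. In both groups it is the difference between the library numbered 3 and the one numbered 4. It exceeded counting error, with a chi-square per degree of freedom of 90 in siblings and 77.7 in knockouts. Whether the controls carried 1 mutant copy of either gene is not stated. Each group has a library numbered 3 and one numbered 4, and the labels do not say what a number stands for.

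The sarcomere is the repeating unit of striated muscle. Thick filaments of myosin pull on thin filaments of actin, which are anchored by alpha-actinin at the Z disc, while myomesin links the thick filaments at the M band. Calcium binding to troponin C, transmitted through troponin I, troponin T and tropomyosin, exposes actin to myosin. Fast and slow fibres use different forms of most of these proteins, and the trunk and tail of a zebrafish larva are largely fast fibres covered by a thin layer of slow ones.

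Total counts were 25623442 in sibling 3, 32248878 in sibling 4, 24769258 in knockout 3 and 35343524 in knockout 4. Values for single genes are given in this order throughout, as CPM (counts divided by the TMM-adjusted library size) unless FPKM (which is also per length, as the authors deposited it) is named. The targeted gene cpa5 was read at 2079, 397, 19 and 15 counts, and cpa1 was not analysed here. The members held 18.8%, 18.7%, 19.4% and 19.5% of all counts, with Wilson 95% intervals of at most 0.0156 percentage points to each side, which cover counting error only. Skeletal muscle was thus well sampled in every library. Of other tissues, 9 cardiomyocyte markers that are not members summed to 13.1, 78.1, 7.83 and 79.9 CPM, and 7 smooth muscle markers to 361, 67.7, 223.7 and 85.2 CPM. In both sums the libraries of like replicate number stood together. Exocrine pancreas markers, cpa5 included (1017, 121, 300.1 and 84.7 CPM), and epidermis markers (21028, 30771, 17643 and 27673 CPM) also divided by number. Notochord markers (508.5, 434.8, 381.8 and 469.2 CPM) did not. For neuron markers (447.4, 541, 539.4 and 590.5 CPM) sibling 4 and knockout 3 were almost equal. Erythrocyte markers (855.7, 932.8, 337.4 and 906.5 CPM) were low in knockout 3 alone. In such bulk samples, fewer cells of a type and less RNA per cell cannot be told apart.

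The embryonic and larval forms of fast muscle dominated. Compared per length, the cardiac-type actin gene actc1b (ENSDARG00000099197), which zebrafish skeletal muscle also uses, was highest, at 13902, 16552, 14829 and 16455 FPKM. It supplied 80.4%, 77.4%, 78.2% and 77.1% of the FPKM of the 6 muscle actin genes, and the skeletal actin acta1b supplied 13.6%, 17.7%, 15.8% and 17.8%. The fast light chain gene mylz3 stood at 6170, 6591, 6518 and 7079 FPKM, and the troponin T gene tnnt3b at 4918, 5031, 5111 and 5033 FPKM. actc1b lay above both in each library. mylz3 in turn lay above the heavy chain gene myhz1.1.2 in each, which stood at 5820, 5242, 5774 and 5214 FPKM.

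Of the fast myosin heavy chains, the motor proteins of the thick filament, myhz1.1.2 (ENSDARG00000067990) was the largest source of reads. Its level was 5820, 5242, 5774 and 5214 FPKM, or 45.8%, 46.5%, 43.8% and 45% of the summed FPKM of the 8 fast heavy chain genes. myhz1.2 held 20.1% to 21.6%, myhz1.3 16.2% to 17.4% and myhz2 13% to 15.2%. The order of these 4 was the same in all libraries. The slow heavy chains smyhc1, smyhc2 and smyhc3, whose symbols fall outside the rule, summed to 319.7, 268.2, 352.4 and 276.7 FPKM against 12717, 11286, 13188 and 11578 FPKM for the fast genes. The fast genes myhz2, myhc4, myha, myhz1.3, myhz1.2 and myhz1.1, stand next to each other in the order of genes in GRCz12tu. Such near-identical neighbours can share reads, so the division among them is uncertain.

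The thin filament regulators were each dominated by 1 fast gene. Troponin C came mostly from tnnc2, which held 84.4%, 86.6%, 84.7% and 85.8% of the FPKM of its class. Troponin I came from tnni2a.4, which held 91.1% to 92.1% of the FPKM of 12 troponin I genes (the kinase gene tnni3k left out). Tropomyosin came from tpma, with 79.9% to 83.7%. Among the myosin-binding proteins, mybphb held 77.7%, 75.9%, 72.4% and 72.5%. Structural genes were lower per length: actn3a, an alpha-actinin of the Z disc, stood at 531.2, 469.7, 567.4 and 506.7 FPKM, and myom1a, a myomesin of the M band, at 170.6, 138.3, 175.5 and 147.2 FPKM.

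Further down each class the levels fell steeply. The regulatory light chains mylpfb and mylpfa of fast fibres stood at 3496 to 3844 and 1308 to 1430 FPKM. The actin actc1a.2 stood at 476.8 to 569.3 FPKM, the tropomyosins tpm3 and tpm2 at 321.9 to 429.3 and 213.4 to 273.4 FPKM, and tnnc1b, the troponin C of slow fibres, at 230.3 to 283.8 FPKM. Troponin I followed with tnni2b.2 at 181.1 to 229.7 FPKM and tnni4b.2 at 59.4 to 106.4 FPKM, the cardiac-type troponin T gene tnnt2d stood at 184.9 to 267.9 FPKM and the cardiac myosin-binding gene mybpc3 at 63.3 to 92.9 FPKM. These ranges run over all 4 libraries. Of the structural genes, the alpha-actinins actn3b and actn4, the latter of the general cytoskeleton, stood at 235.2 to 263.5 and 70.0 to 74.3 FPKM. The myomesins myom2a and myom1b stood at 141.1 to 160.4 and 103.7 to 144.3 FPKM. The Z-disc genes myoz1b, myoz2a and myoz1a stood at 333.5 to 403.4, 34.8 to 41.3 and 32.9 to 37.0 FPKM, and neb, coding for nebulin, at 65.0 to 93.5 FPKM. None of these genes was called in either comparison that follows.

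**Figure D1:**
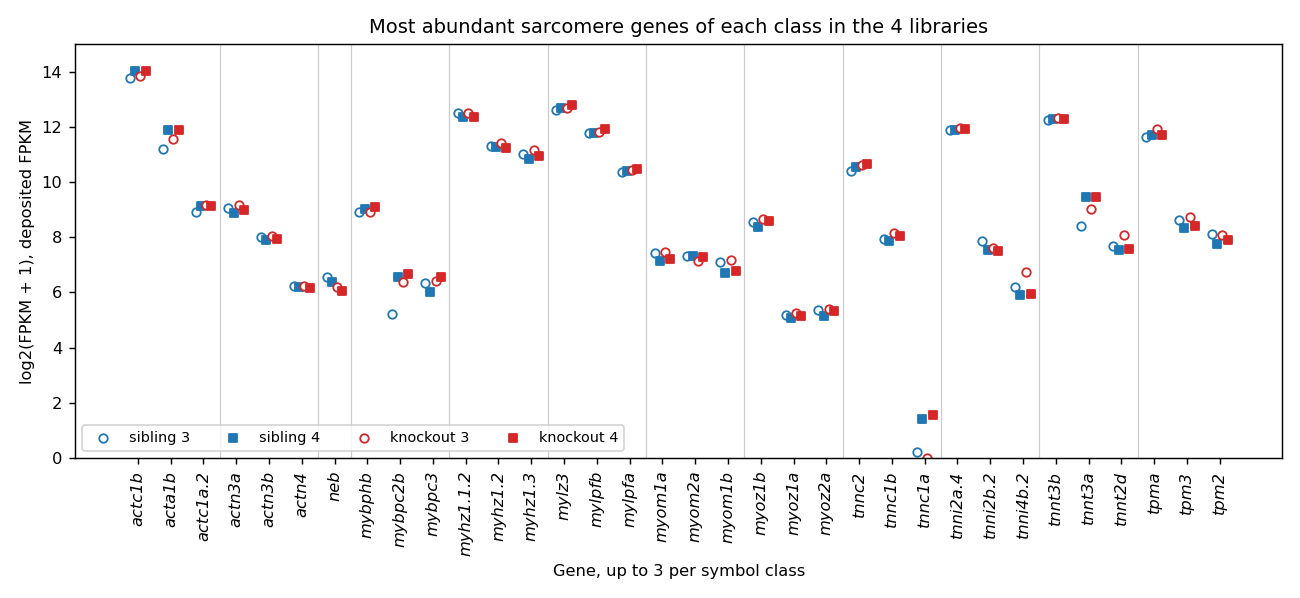
Levels of the leading members of each class in the 4 libraries, as log2(FPKM + 1) of the deposited FPKM, with 1 point per library and no summary bars. Points of 1 gene lie close together for most genes, and actc1b, at 13902 to 16552 FPKM, is the highest.

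No sarcomere gene was called between double knockouts and siblings. The fast heavy chain myhz1.1.2 stood at 42751, 39983, 39740 and 39994 CPM, with a log2 fold change of knockout over sibling of -0.05 (95% interval -0.33 to 0.22). actc1b was read at 29732, 34957, 29723 and 36694 CPM, which the replicate numbers divide and the genotypes do not, with a log2 fold change of 0.04 (95% interval -0.40 to 0.48). tpma, at 11919, 12808, 11903 and 13247 CPM, had a log2 fold change of 0.02 (95% interval -0.32 to 0.37). The groups overlapped for actc1b and tpma, and for myhz1.1.2 sibling 4 lay between the knockouts.

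Across the whole table edgeR's quasi-likelihood test, with Benjamini-Hochberg adjustment over all features and a threshold of 0.05, called 0% of features. It called 0 of the 96 members, all of them at an adjusted p of 1, and the smallest adjusted p of any feature was 0.273. At an unadjusted p under 0.05 the members again numbered 0, against 0.502% of all features. DESeq2 called 19 features (0.0954%), of which 0 were members, and 0 members at an unadjusted p under 0.05 against 0.567% of all features. In the authors' deposited table the smallest unadjusted p of a member was 0.128 and the smallest adjusted p was 1. With 2 libraries per group a p above the threshold does not show equal levels.

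The intervals of the main test say what size of change that fit leaves possible. It has no term for replicate number, so their width includes the difference between libraries 3 and 4. They were therefore also wide for abundant genes that differed by number, such as myh11a (mean 108.2 CPM, interval -2.37 to 1.78). The 95% interval of the log2 fold change lay within 1 log2 unit of 0 for 61 of the 96 members. It did so for 45 of the 50 members at 100 CPM or more, and for 1 of the 18 members under 10 CPM. A change of 1 log2 unit thus lay outside the interval for most abundant members and inside it for most rare ones. The median log2 fold change over the members was 0.04, with a range of -0.65 to 0.63, and 74 lay within 0.2 of 0. Over all features the median was -0.01.

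By the roles of the genes, the skeletal members had a median log2 fold change of 0.03 (36 higher, 24 lower). The heart-type members had 0.08 (11 higher, 3 lower) and the cytoplasmic and smooth muscle members -0.04 (9 higher, 13 lower). None of them was called. Over all features 9535 were higher and 10389 lower. The knockout exceeded the sibling of like number in both pairs for only 15 skeletal, 4 heart-type and 2 other members. Both knockouts lay above both siblings for 7 members (7.29%, against 8.72% of all features) and below for 6 (6.25%, against 9.01%). These shares are near those of the whole table.

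The members with the smallest p were mostly low in counts. myl6, a light chain of cytoplasmic and smooth muscle myosin, stood at 20.1, 11.6, 11.8 and 8.46 CPM, with a log2 fold change of -0.65 ± 0.356 (SE, edgeR, adjusted p = 1). Sibling 4 and knockout 3 were almost equal. The troponin I gene tnni2a.3 was at 2.38, 2.35, 1.85 and 1.45 CPM (log2 fold change -0.52 ± 0.293), and tnni1d at 2.81, 5.36, 5.98 and 6.26 CPM (0.58 ± 0.369). Neither pair of groups overlapped, and neither gene passed the test. The cardiac kinase gene tnni3k stood at 1.91, 1.62, 3.55 and 1.91 CPM, and the cardiac troponin I gene tnni1b at 13.2, 12, 8.33 and 11.4 CPM. Knockout 3 was the library apart in both.

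Only 1 of the 6 members with the smallest p was abundant. The fast heavy chain myha stood at 727.9, 696.7, 826.3 and 826.9 CPM, with a log2 fold change of 0.21 ± 0.147 (edgeR, adjusted p = 1). Both knockouts were higher than both siblings. Its neighbour myhc4, another fast heavy chain, stood at 1711, 1618, 2027 and 1810.0 CPM, a log2 fold change of 0.21 ± 0.149, with the groups again apart. As neighbours with similar sequence, they may share reads.

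The difference between genotypes was not the same in the pairs of libraries of like number. In the number 3 libraries the median difference of the members in log2 CPM, knockout minus sibling, was -0.04, and in the number 4 libraries it was 0.10. It was positive in both for 21 members (21.9%, against 24.5% of all features) and negative in both for 15 (15.6%, against 26.4%). Over the 96 members the pairs' differences had a Spearman correlation of -0.374 and a Pearson correlation of -0.245, and over all features Spearman's rho was 0.0254. These points share libraries and normalization and are a description. The myosin-binding gene mybpc2b, for example, differed by 1.04 in number 3 and by -0.0019 in number 4.

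**Figure D2:**
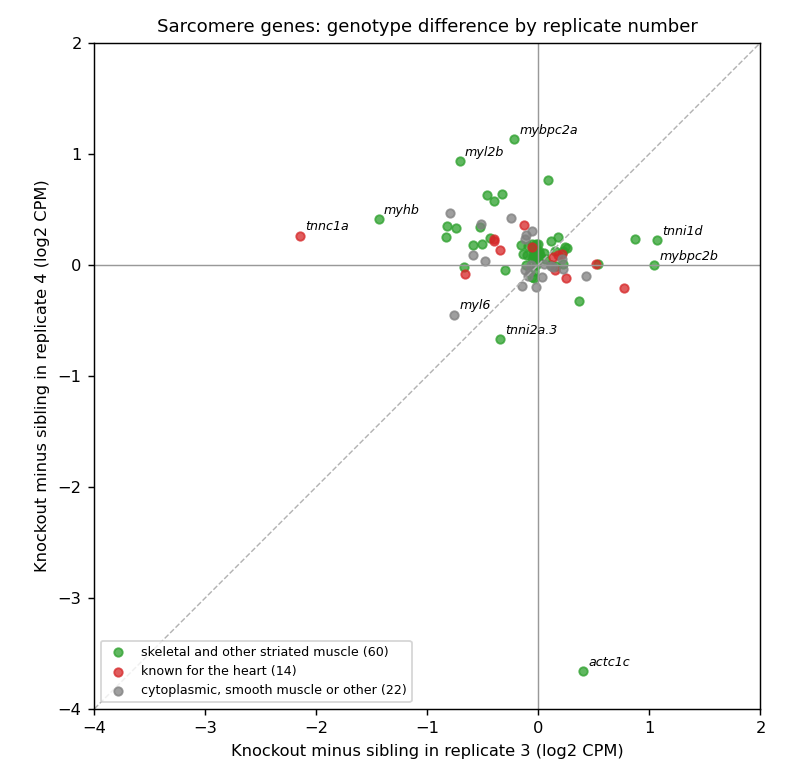
Difference in log2 CPM between knockout and sibling for the 96 members, in the number 3 libraries (x axis) and the number 4 libraries (y axis), coloured by the tissue the gene is known for, with a dashed line of equality. Most points lie near 0 on both axes, and genes far from 0 on one axis, such as mybpc2b at 1.04 and -0.0019, are seldom far on the other.

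Genes that work with the sarcomere were read in the same way. Of 33 other sarcomere genes measured, 22 were higher and 11 lower in knockouts (median log2 fold change 0.05). Of 25 genes of excitation-contraction coupling, the release of calcium on a nerve signal, 18 were higher (median 0.06). Among 16 muscle energy enzymes 8 were higher (median 0.00044), and among 19 myogenic regulators, the factors that set muscle identity, 11 were higher (median 0.04). Of 7 genes for myosin folding and assembly 6 were higher (median 0.15). Of all these genes edgeR called 0 between genotypes. Over all features 9535 were higher and 10389 lower. In this order of lists, 13, 9, 5, 5 and 5 genes were higher in both pairs of like number, as were 24.5% of all features. No lean of a list was tested. The titin gene ttn.1, which codes for the spring of the sarcomere, stood at 4046, 3213, 4250 and 2933 CPM, a log2 fold change of -0.01, and ttn.2 at 4011, 3374, 4037 and 3061 CPM, at -0.06.

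The members varied more between replicate numbers than between genotypes. In a fit with genotype as a term, edgeR called 14 of the 96 between the libraries numbered 4 and 3: 6 higher in number 4 (6.25%, against 6.99% of all features) and 8 lower (8.33%, against 8.16%). With edgeR the members' shares are thus near the background. Their median log2 difference was -0.05, against 0.01 over all features. DESeq2 called 6 higher (6.25%, against 4.71% of all features) and 10 lower (10.4%, against 5.89%). These shares were above those of the whole table, which was not tested. Both tools called 11 members. Both number 4 libraries lay above both number 3 libraries for 32 members (33.3%, against 32.8% of all features). They lay below for 39 (40.6%, against 32.9%). Such a separation was thus common in the whole table, and no difference between these shares was tested. The fit rests on 1 residual degree of freedom. The spread behind its p-values is what genotype and replicate number leave over, not that between libraries of a group. On simulated data this edgeR fit made more false calls than its threshold states, so adjusted p-values near 0.05 are weak. Summed over the members, the scaled CPM was 187545, 191761, 185343.5 and 199491, with both number 4 libraries above both number 3 libraries. That order depends on the scaling, since the members' share of raw counts given above was instead higher in both knockouts than in both siblings.

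The fast heavy chains were not among the called genes. Of the 8 none passed, but their log2 differences were not alike. The abundant myhz1.1.2 was at -0.04, myhz1.2 at -0.01, myhz1.3 at -0.09 and myhz2 at -0.24 (edgeR, adjusted p = 0.212). myhc4 was at -0.12 and myha at -0.03. The least abundant were myhb, at 1.03 (adjusted p = 0.174), and myhz1.1, at 0.9 (adjusted p = 0.0945). Both were higher in both number 4 libraries than in both number 3 libraries, as were 32.8% of all features. The titin genes ttn.1, at -0.43 (adjusted p = 0.0572), and ttn.2, at -0.32 (adjusted p = 0.0956), did not pass either.

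Of the abundant thin filament and light chain genes, tnnt3a, acta1b and myl1 rose in number 4. The likewise abundant actc1b (log2 difference 0.27, edgeR, adjusted p = 0.172), mylz3 (0.22, adjusted p = 0.222), tpma (0.13, adjusted p = 0.437) and tnnt3b (0.08, adjusted p = 0.633) did not pass. The fast troponin T gene tnnt3a stood at 469.2, 1021, 683.2 and 1026 CPM, a log2 difference of 0.85 ± 0.151 (edgeR, adjusted p = 0.0294). The skeletal actin acta1b stood at 4427, 7413, 5172 and 7468 CPM (0.64 ± 0.111, adjusted p = 0.0282). The fast essential light chain myl1 stood at 2005, 2846, 1947 and 2623 CPM (0.47 ± 0.0951, adjusted p = 0.0389). Both number 4 libraries exceeded both number 3 libraries for each gene, and knockout 3 was nearer to the number 4 libraries than sibling 3 for tnnt3a and acta1b. The troponin I gene tnni2b.1 was at 8.73, 25.2, 11.3 and 20 CPM (1.17 ± 0.195, adjusted p = 0.0256). In fits with no genotype term, tnnt3a, acta1b and myl1 no longer passed without sibling 4 (adjusted p = 0.109, 0.0707 and 0.158) or without knockout 4 (0.0907, 0.0596 and 0.0706), nor did tnni2b.1 without sibling 4 (0.0658).

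Ratios between related genes differed among the libraries as well. The FPKM of tnnt3a over that of the closely related tnnt3b was 0.0685, 0.14, 0.103 and 0.14. The ratio of acta1b to the other skeletal actin, acta1a, was 5.14, 10.4, 6.51 and 9.27. The ratio of the fast myosin-binding gene mybpc2b to the slow gene mybpc1 was 3.25, 13.7, 8.62 and 13.2. In all 3 ratios sibling 3 was lowest, knockout 3 next, and the number 4 libraries highest. mybpc2b alone, at 157.2, 434.8, 322.8 and 434.2 CPM, did not pass between replicate numbers (0.95 ± 0.255, edgeR, adjusted p = 0.0698), nor did mybpc1 at 46.5, 24.9, 34.3 and 29.5 CPM (adjusted p = 0.104). The ratio of the slow heavy chain smyhc1 to myhz1.1.2 was 0.041, 0.0374, 0.0451 and 0.0387, lower in the number 4 libraries. These ratios were chosen after the values were seen and carry no test.

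**Figure D3:**
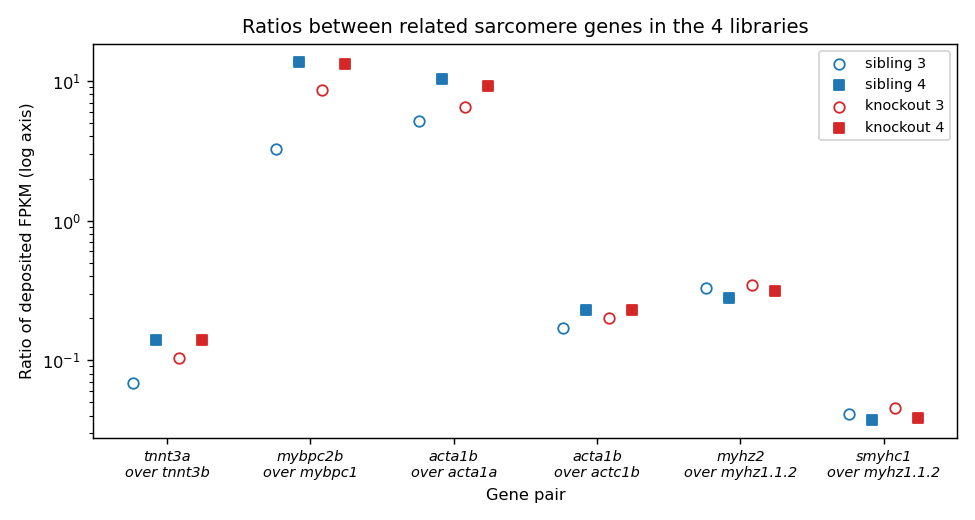
Ratios of deposited FPKM between pairs of related genes in the 4 libraries, on a log axis, 1 point per library. For tnnt3a over tnnt3b the number 4 libraries both stand at 0.14, above 0.0685 in sibling 3 and 0.103 in knockout 3.

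Of the 14 members known from the heart, 2 rose in number 4 with edgeR (14.3%, against 6.99% of all features) and 1 fell (7.14%, against 8.16%). DESeq2 called 2 of the 14 higher (against 4.71% of all features) and 3 lower (against 5.89%). myh7l, a relative of the cardiac heavy chain genes, rose from 5.38 and 4.05 CPM in sibling 3 and knockout 3 to 32.1 and 37.6 CPM in sibling 4 and knockout 4 (2.89 ± 0.183, edgeR, adjusted p = 0.00438). The cardiac troponin C gene tnnc1a was counted 6, 72, 0 and 95 times (4.42 ± 0.807, adjusted p = 0.0313). That fitted value depends on a library at 0 counts, is 9.27 without sibling 3, and DESeq2 did not call the gene (adjusted p = 0.0891). tnnt2b, a relative of cardiac troponin T, fell, at 8.73, 2.32, 6.83 and 2.55 CPM (-1.66 ± 0.221, adjusted p = 0.0158). Of the 9 cardiomyocyte markers that are not members 7 rose in number 4 (77.8%) and 0 fell. Among them myl7, a cardiac light chain gene, was at 18, 611, 2 and 711 counts, and nppb was at 0 in knockout 3. Summed over the 14 heart-type members, CPM was instead 1142, 1048, 1200 and 1128, slightly lower in the number 4 libraries. The most abundant of them, mybpc3, stood at 302, 272.9, 348.8 and 293.2 CPM and did not rise with myl7. The tissue that the reads of these members came from was not tested. Nor was the part of the cardiomyocyte markers in the values of myh7l and tnnc1a.

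Of the 22 smooth muscle, cytoplasmic and unrelated members 4 fell in number 4 (18.2%, against 8.16% of all features). Of the rest 0 rose (against 6.99%) and 18 did not pass. myh11a, the smooth muscle heavy chain, stood at 191.6, 46.9, 133.7 and 60.6 CPM (-1.58 ± 0.227, edgeR, adjusted p = 0.0189). The light chain kinase genes mylkb, at 12.9, 4.06, 12.4 and 5.01 CPM (-1.48 ± 0.166, adjusted p = 0.0113), and mylk4b, at 33.8, 14.2, 36.4 and 14.1 CPM (-1.31 ± 0.102, adjusted p = 0.00595), followed. mylk4b was placed in this group as a relative of the gene mylk, and its tissue was not checked. The light chain gene myl6 also fell (-0.64 ± 0.138, adjusted p = 0.0442). Number 3 and number 4 libraries did not overlap for these genes. For myl6, however, knockout 3 (11.8 CPM) and sibling 4 (11.6 CPM) were almost equal. Of the 60 skeletal members 4 rose (6.67%, against 6.99% of all features) and 3 fell (5%, against 8.16%). No difference between these kinds of member was tested. Of the 7 smooth muscle markers that are not members 5 fell (71.4%) and 0 rose, with the smooth muscle actin acta2 at 244.7, 42, 142.9 and 54.9 CPM. None of these markers was at 0, and their part in the result was not tested.

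The remaining called genes were low. The regulatory light chain gene myl2b was counted 106, 11, 65 and 25 times (-2.59 ± 0.484, edgeR, adjusted p = 0.0329, and 0.0558 without sibling 4). tnni4b.1, a troponin I gene, was at 2.57, 0.349, 1.93 and 0.551 CPM (-2.3 ± 0.393, adjusted p = 0.027, and 0.0636 without sibling 4). The Z-disc gene myoz2b stood at 29.7, 22.4, 35.5 and 24.9 CPM (-0.46 ± 0.0992, adjusted p = 0.0438). DESeq2 did not call myoz2b (0.162) or myl6 (0.127). With no genotype term neither passed over all 4 libraries (edgeR, adjusted p = 0.15 for myl6 and 0.0536 for myoz2b). With 1 library also left out, myl6 passed only without knockout 3 (adjusted p = 0.00945), and reached -0.23 (adjusted p = 0.453) without sibling 3, with an adjusted p of 0.193 without sibling 4 and 0.428 without knockout 4. myoz2b passed only without sibling 3 (adjusted p = 0.00999), with an adjusted p of 0.29 without sibling 4, 0.086 without knockout 3 and 0.149 without knockout 4. DESeq2 in turn called 5 members that edgeR did not, namely myh14, myh7, tnnt2c, tnnt2e and mybpha. By DESeq2, tnnt2c was higher in number 4 (log2 difference 0.92). The others were lower: myh14 (-0.6), myh7 (-0.65), tnnt2e (-0.6) and mybpha (-1).

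**Figure D4:**
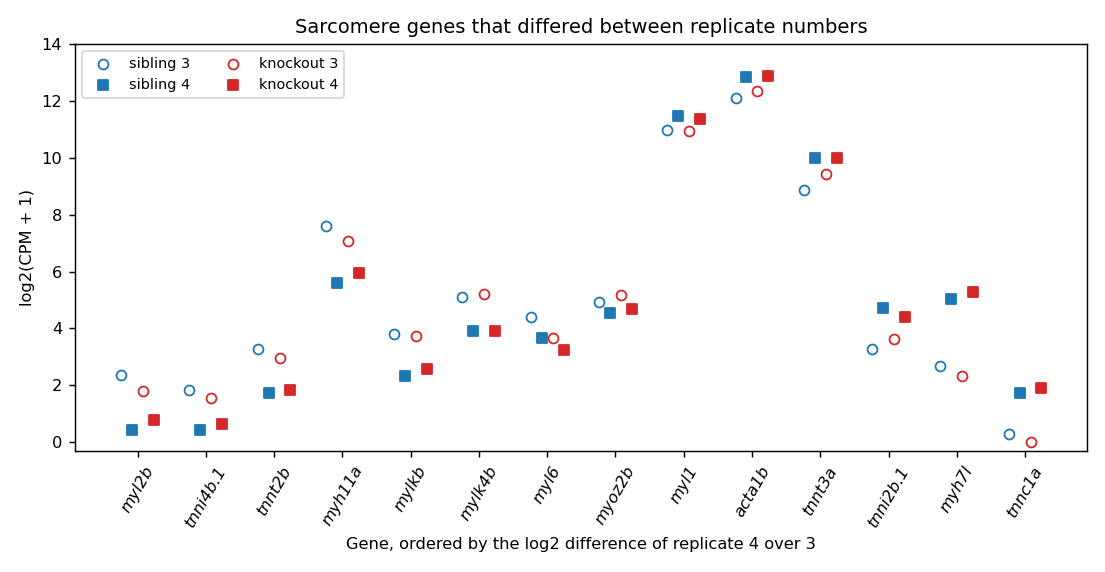
Levels of the 14 members that edgeR called between replicate numbers, as log2(CPM + 1), 1 point per library. For each gene both number 4 libraries lie on 1 side of both number 3 libraries, as for myh7l at 32.1 and 37.6 CPM against 5.38 and 4.05 CPM. The genes were chosen by a test of this difference. Of all features, 32.8% had both number 4 libraries above both number 3 libraries and 32.9% below.

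The replicate difference had the same sign in siblings and knockouts for 77 of the 96 members (80.2%, against 75.4% of all features). Among these it was larger in siblings for 46 (59.7%, against 55.3%). Over the 96 members the differences had a Spearman correlation of 0.785 and a Pearson correlation of 0.718, and over all features Spearman's rho was 0.672. The points are described without a test, since they share depth and normalization. The fast heavy chain myhb was an exception in size, at 39.7, 43.3, 14.6 and 57.6 CPM, with knockout 3 the low library.

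**Figure D5:**
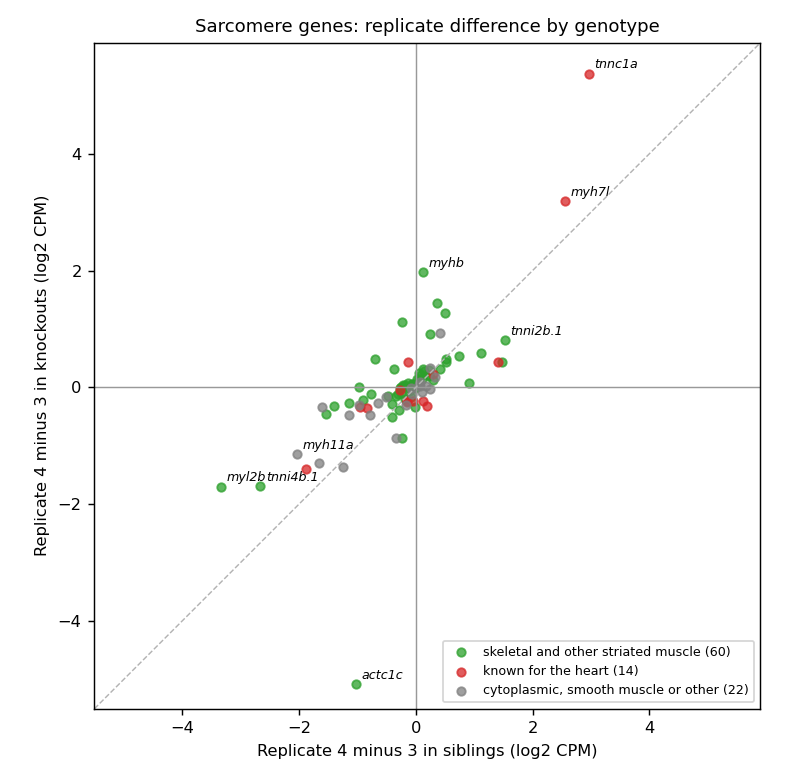
Difference in log2 CPM between the libraries numbered 4 and 3 for the 96 members, in siblings (x axis) and knockouts (y axis), coloured by the tissue the gene is known for, with a dashed line of equality. Of the members, 77 lie in the quadrants of equal sign.

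Most genes listed for myosin folding and assembly rose in number 4, while none of the 8 fast heavy chain genes passed. The log2 differences of those 8 genes ran from -0.24 for myhz2 to 1.03 for myhb. Of the other members that code for heavy chains, myh7l rose and myh11a fell, as given above. Of 7 measured genes for myosin folding and assembly 6 were called higher in number 4 (85.7%, against 6.99% of all features) and 0 lower. Their median log2 difference was 2.48. unc45b, the myosin chaperone of muscle, stood at 84.9, 460.7, 116.2 and 583.9 CPM (2.38 ± 0.0973, edgeR, adjusted p = 0.00199). smyd1b, a methyltransferase gene that acts with it, stood at 68.1, 582.7, 97.9 and 652.3 CPM (2.92 ± 0.129, adjusted p = 0.00238), and hsp90aa1.1, the muscle Hsp90, at 408.0, 2163, 438.4 and 2578 CPM (2.48 ± 0.103, adjusted p = 0.00199). Number 4 libraries were far above number 3 libraries in both genotypes. smyd1a, at 427.5, 500.7, 454.5 and 525.4 CPM, did not pass (0.22 ± 0.0888, adjusted p = 0.157). The list also holds hsp90aa1.2, bag3 and the general stress gene hspb1, the last of which rose by 5.06. It is thus not limited to genes that act on myosin alone.

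The other muscle lists held calls too, to be set against 6.99% of all features higher and 8.16% lower. Of 33 further sarcomere genes 4 rose and 3 fell (21.2% called, against 15.1% of all features), among them obscna, coding for the giant protein obscurin, at 14.5, 41.8, 15.7 and 30.5 CPM (1.24 ± 0.164, edgeR, adjusted p = 0.0157). Another, desmb, fell, at 20.6, 3.90, 12.8 and 3.62 CPM (-2.12 ± 0.189, adjusted p = 0.00769). desmb and lmod1b are in the list of smooth muscle markers as well, so the calls of these lists overlap. Of 25 coupling genes 2 rose (8%) and 1 fell (4%), and of 19 myogenic regulators 2 rose and 2 fell (10.5% each). Of 16 energy enzymes 0 rose and 4 fell (25%, median log2 difference -0.28), including aldoaa, a glycolytic aldolase, at 1506, 645.0, 1312 and 656.9 CPM (-1.11 ± 0.105, adjusted p = 0.00873) and the lactate dehydrogenase gene ldha at 984.3, 503.3, 955.8 and 575.1 CPM (-0.85 ± 0.104, adjusted p = 0.0135). The other 12 did not pass, among them the abundant ckmb (0.19, edgeR, adjusted p = 0.303) and aldoab (0.03, adjusted p = 0.84). Summed over the 16 enzymes, CPM was 25626, 26849, 27362 and 27514, which the replicate numbers did not divide.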

How the data were processed

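The authors deposited 1 table with read counts and FPKM per library, and with their own log2 fold change, unadjusted p-value and adjusted p-value of mutant over sibling, per the file headers. Per the submitters' processing notes, HISAT2 2.2.1 and DESeq2 1.26.0 were used with GRCz11. The sources used here name no read counter, annotation release or strand setting, so values of overlapping and near-identical genes are uncertain.

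Counts were fitted as deposited over all 19924 features with edgeR 4.0.16 (R 4.3.3; quasi-likelihood, TMM, filterByExpr, which removed 0 features), with no covariate for genotype, and with genotype as a term for replicate number. Tests were two-sided, with Benjamini-Hochberg adjustment over all features and a threshold of 0.05. Differences in log2 CPM use a prior count of 2. FPKM was set on the log2 scale with a pseudocount of 1. Scripts were tested on simulated data, in which the fit of replicate number, with 1 residual degree of freedom, made more false calls than its threshold states and DESeq2 made fewer. Alternatives were RLE size factors, no filter, DESeq2 1.42.0, limma-voom (limma 3.58.1), library sizes without the members, log2(FPKM + 1), the replicate number as a term, no genotype term, and each library left out.

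Named genes were the 3 highest per class by mean CPM and the 6 with the smallest p between genotypes. Between replicate numbers, only members called by edgeR at a mean of at least 2 CPM were considered. Of these, up to 6 higher and 6 lower were named by size of difference. Others were named after their values were seen. The members, lists and tests were chosen with earlier results of these data known.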

Additional observations from a re-analysis of the deposited data

How the results depend on the processing

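Between genotypes 0 members were called under every alternative run, while features called in the whole table went from 0 to 19 with DESeq2 and to 3 in the fit with the replicate block. The libraries share only a number: deviations from the group means had a correlation of 0.619 between libraries of like number (0.718 over the members). With 2 libraries per group, both pairs give the same value by construction. The 0.718 is the Pearson correlation of the replicate differences given above, not a further result. In the block fit 1 member, myl6, had an unadjusted p under 0.05 (0.00691), against 4.41% of all features. Leaving out a library mixes genotype with replicate number, and where the cause of a change is not plain from that it was not tested. With no genotype term and 1 library left out, members called between replicate numbers ranged from 7 to 37 around 14, those higher from 2 to 17, those lower from 5 to 20, and features from 880 to 4867 around 3018. The members called were 30 without sibling 3, 7 without sibling 4, 37 without knockout 3 and 11 without knockout 4, so the number of calls depends on single libraries.

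Between genotypes no member passed with all libraries, so every direction that reversed there belonged to a value short of the threshold. Between replicate numbers no called member reversed. The log2 fold change between genotypes changed sign with limma-voom for mybphb (-0.0026), tnnc1a (-1.5), tpm2 (0.01), myh7l (-0.06), tnni2b.1 (0.01), myl2b (0.19) and tnni4b.1 (0.12). With the replicate block it did so for mybphb (-0.0036), tnnc1a (-0.21), tpm2 (0.01) and myh7l (-0.03), and with library sizes set without the members for tnnt3b (0.00016). On log2(FPKM + 1) it did so for myhz1.2 (0.03), tnnc1a (-0.03), tnnt3b (0.03), tpm2 (0.08) and tnni2b.1 (0.05).

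With each library left out in turn, the log2 fold change between genotypes crossed 0 for 34 named genes. Of actins and alpha-actinins, acta1b ranged from -0.23 to 0.52, actc1a.2 from -0.07 to 0.23, actc1b from -0.11 to 0.18 and actn3b from -0.0046 to 0.05. Of heavy chains and myosin-binding proteins, mybpc2b ranged from -0.2 to 1.27, mybphb from -0.15 to 0.15, myh11a from -0.98 to 1.05, myh7l from -2.2 to 1.96 and myhz1.2 from -0.01 to 0.0021. Of light chains and their kinases, myl1 ranged from -0.32 to 0.19, myl2b from -1.61 to 2.18, mylk4b from -0.77 to 0.83, mylkb from -0.76 to 1.09, mylpfa from -0.06 to 0.15, mylpfb from -0.07 to 0.17 and mylz3 from -0.08 to 0.19. Of M-band, Z-disc and giant proteins, myom1a ranged from -0.09 to 0.15, myom1b from -0.13 to 0.26, myom2a from -0.1 to 0.07, myoz1a from -0.01 to 0.05, myoz2a from -0.03 to 0.17, myoz2b from -0.07 to 0.46 and neb from -0.16 to 0.07. Of troponins, tnnc1a ranged from -8.14 to 2.56, tnni2a.4 from -0.03 to 0.1, tnni2b.1 from -0.69 to 0.85, tnni4b.1 from -1.39 to 1.8, tnni4b.2 from -0.15 to 0.25, tnnt2b from -1.11 to 1.01, tnnt3a from -0.26 to 0.87 and tnnt3b from -0.06 to 0.07, and of tropomyosins tpm2 from -0.22 to 0.24, tpm3 from -0.04 to 0.16 and tpma from -0.04 to 0.1. The difference between replicate numbers crossed 0 for 12, none of them called with all libraries: actn3b (-0.05 to 0.03), myha (-0.16 to 0.08), myhz1.1.2 (-0.1 to 0.01), myom2a (-0.13 to 0.01), myoz1a (-0.05 to 0.02), myoz1b (-0.13 to 0.06), myoz2a (-0.19 to 0.0025), tnnc1b (-0.11 to 0.11), tnni1b (-0.18 to 0.49), tnni1d (-0.04 to 1.05), tnni2a.3 (-0.55 to 0.15) and tnni2b.2 (-0.27 to 0.03).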

Other observations

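The deposited counts and FPKM gave different pictures for a few members. Dividing the count by the FPKM and the library total gives the number of bases by which the count was scaled. The largest over the smallest of these across the 4 libraries had a median ratio of 1.04 over the members and exceeded 1.2 for 11. For neb, the gene for nebulin, the giant ruler of the thin filament, CPM was 854.8, 1003.7, 831.2 and 961.3, highest in sibling 4, while FPKM was 93.5, 82.2, 72.2 and 65.0, highest in sibling 3. The implied bases were 9154, 11940, 12047 and 14446, a ratio of 1.58. The ratio was 2.95 for the troponin I gene tnni4a, 2.11 for the smooth muscle heavy chain myh11b and 1.48 for the cardiac troponin I gene tnni1b. The sources used here do not say how feature length was set.

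Of 92 members located in the gene order of GRCz12tu, 24 stood next to another member, in 9 runs. In the pair myh7 and myh7l the number 4 libraries lay below the number 3 libraries for one and above them for the other: myh7 (not called by edgeR, adjusted p = 0.063) stood at 153.2, 79.3, 116.2 and 91.5 CPM and myh7l at 5.38, 32.1, 4.05 and 37.6 CPM. This was noticed after the values were seen.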
